A study of Mus musculus with 12 samples.

Results

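The genes described here are the clock output factors of the basic leucine zipper (bZIP) class, Dbp, Tef, Hlf and Nfil3, together with the clock-controlled repressors Bhlhe40 and Bhlhe41. They were chosen by symbol, and all 6 had a row among the 54532 genes of the deposited count table. RNA was sequenced in bulk from mouse fetal ovaries at E15.5 (embryonic day), after the dams had been injected with dexamethasone (dex, which activates the glucocorticoid receptor; 10 µg per g) or with saline on each of the 4 days from E12.5 to E15.5. The mice were of the strain Tg(Pou5f1-EGFP)2Mnn, and all groups carried its OCT4-GFP transgene, a green fluorescent protein driven by the Pou5f1 promoter and distal enhancer with the proximal enhancer deleted, which marks germ cells. Ovaries pooled from independently dosed litters were sorted by GFP into germ cells, which carry it, and somatic cells (soma), which lack it, and each cell type had 3 libraries after dex and 3 after saline, or 4 groups in all. The soma fraction held every cell type without GFP, and all ovaries were collected at a single time of day, a few hours after the last injection. The p-values measure the spread between these pooled libraries.

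In the mammalian circadian clock, CLOCK and ARNTL (BMAL1) activate genes through E-box sequences, and the PER and CRY proteins repress that activation. DBP, TEF and HLF are PAR bZIP activators that bind D-box sequences in output genes, and NFIL3 (E4BP4) is a bZIP repressor that binds the same D-box sequences. BHLHE40 (DEC1) and BHLHE41 (DEC2) belong to the bHLH-Orange family and repress from E-boxes. Several of these genes are known in other tissues to respond to glucocorticoids, among them Per1 and Per2.

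RefSeq promoter windows (build GRCm38.p6, mouse), the 250 bases before each annotated start, were matched to 5 of the 6 genes: Dbp, Hlf, Nfil3 and Bhlhe41 with 1 window each and Tef with 2. Both strands were searched for the E-box CACGTG, for the D-boxes TTATGTAA and TTACGTAA, for a glucocorticoid receptor type core ACANNNTGT, and for the cyclic AMP response element TGACGTCA, the last added after the windows had been seen. Of all 32851 windows in the table, 6.02% held the E-box, 0.931% a D-box, 5.84% the receptor core and 1.55% the cyclic AMP element. The E-box was found in both Tef windows and in the Bhlhe41 window, and no D-box or receptor core was found in the 6 windows. No matches overlapped one another, and a match is a run of letters, not a bound site. The 3 E-boxes are shown with their flanks, the E-box in capitals. Tef and Bhlhe41 were not called after dex in either cell type, and neither was Dbp, whose window held no E-box. Both Tef windows lie inside the annotated span of the Tef gene.
Tef, first window, chr15:81802534-81802563, plus strand: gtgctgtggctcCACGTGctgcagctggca
Tef, second window, chr15:81811264-81811293, plus strand: cacctggcccagCACGTGtctacatcgttt
Bhlhe41, chr6:145865556-145865585, minus strand: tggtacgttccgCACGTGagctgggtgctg

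The upstream sequences of Hlf and Nfil3 are shown because both genes rose in soma after dex. The Hlf window held the cyclic AMP element TGACGTCA, given in capitals, next to the annotated start. The Nfil3 window held none of the searched motifs and was 81.6% G or C, higher than 99.3% of all windows, against a median over all windows of 52.4%. The Nfil3 sequence stops where the GENCODE gene begins.
Hlf, chr11:90390918-90391167, minus strand: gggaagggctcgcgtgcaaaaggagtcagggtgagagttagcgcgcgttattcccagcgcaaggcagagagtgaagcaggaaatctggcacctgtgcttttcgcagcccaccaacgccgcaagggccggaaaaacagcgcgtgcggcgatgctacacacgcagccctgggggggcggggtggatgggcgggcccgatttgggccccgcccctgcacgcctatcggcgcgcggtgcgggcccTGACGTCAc
Nfil3, chr13:52981074-52981289, minus strand: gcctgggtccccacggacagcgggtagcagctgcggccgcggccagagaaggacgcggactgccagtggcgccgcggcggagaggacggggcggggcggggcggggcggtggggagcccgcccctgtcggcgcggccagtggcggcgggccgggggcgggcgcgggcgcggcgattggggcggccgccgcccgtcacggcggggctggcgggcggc

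In GRCm38 coordinates, Dbp (ENSMUSG00000059824) spans chr7:45705088-45710203 on the plus strand, Tef (ENSMUSG00000022389) chr15:81802421-81826863 on the plus strand and Hlf (ENSMUSG00000003949) chr11:90336536-90390895 on the minus strand. Nfil3 (ENSMUSG00000056749) spans chr13:52967209-52981073 on the minus strand, Bhlhe40 (ENSMUSG00000030103) chr6:108660629-108666925 on the plus strand and Bhlhe41 (ENSMUSG00000030256) chr6:145858243-145865558 on the minus strand. Values are summed over the exons of each gene. Dbp overlaps Sphk2 on the opposite strand, and Tef, Bhlhe40 and Bhlhe41 each overlap a little-expressed opposite-strand gene (Gm17597, 0610040F04Rik and Gm43909). Whether reads were counted by strand is not given in the sources used here, so reads of such a pair cannot be told apart in the shared stretch, and Dbp is the most exposed, since Sphk2 had 579 to 760 counts in every library. Hlf and Nfil3 overlap no annotated gene.

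Germ cell libraries held 14658503 to 17616664 counts and soma libraries 15161804 to 18245507. A count of 3, taken as the detection floor, corresponded to at most 0.196 CPM (counts scaled to a common library size), and every value below lies above it. The labels matched the cell types: 10 germ cell markers (such as Ddx4 and Dazl) summed to 4828 CPM or more in each germ library and to at most 34.2 CPM in soma. Conversely, 10 stromal markers summed to 22815 CPM or more in soma and to at most 298 CPM in germ cells. Of the 10 germ cell markers, 9 were called higher in germ cells than in soma after saline. Dnd1 was called lower there (1.97 against 3.21 CPM). Of 7 known targets of the glucocorticoid receptor, 6 were higher after dex in soma and 2, Per1 and Zbtb16, were higher in germ cells. Zbtb16 averaged 0.46 CPM after saline and 3.59 CPM after dex in germ cells, against 0.56 and 69.5 CPM in soma. It had as few as 29 counts in a germ library after dex. The part of remaining somatic RNA in the germ level of Zbtb16 was not tested.

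The first question was whether the clock output factors changed with dex in soma. Hlf, Nfil3 and Bhlhe40 rose and none of the 6 fell, against 4.81% of the 16556 tested genes higher and 8.18% changed in either direction (edgeR quasi-likelihood test, Benjamini-Hochberg adjusted p at or below 0.05). The libraries of the groups did not overlap for 4 of the 6, where 25.6% of all tested genes showed such a separation. The 6 genes were chosen with earlier results of these data known, so here and below such shares are a background and not a test. All 6 passed the filter on low counts here and in every other comparison. In bulk RNA, fewer cells of a type and less RNA per cell cannot be told apart.

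Hlf, a PAR bZIP activator, had 12.5, 11.9 and 13.1 CPM in the soma libraries after saline. After dex it had 35.6, 36.0 and 29.7 CPM. Every dex library was far above every saline library. The mean of the 3 libraries went from 12.5 (SD 0.58) to 33.8 (SD 3.5) CPM, and the fitted log2 fold change was 1.44 (SE 0.12, adjusted p = 3.68e-06). By p-value Hlf was gene 51 of the soma comparison.

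Nfil3, the D-box repressor, had 17.9, 19.0 and 20.7 CPM after saline. After dex it had 38.3, 36.2 and 29.3 CPM. Each dex library lay above each saline library, with replicate 3 the lowest of the dex group. On average Nfil3 rose from 19.2 ± 1.4 to 34.6 ± 4.7 CPM (SD, n = 3), which the fit gave as a log2 fold change of 0.86 (SE 0.12, adjusted p = 0.000441).

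Bhlhe40, the E-box repressor also called DEC1, had 28.3, 30.6 and 35.9 CPM after saline. After dex it had 45.5, 48.4 and 59.0 CPM. The groups did not overlap, and in both of them replicate 3 was the highest. Its mean rose from 31.6 ± 3.9 to 51.0 ± 7.1 CPM (SD, n = 3), or by 0.70 on the log2 scale (SE 0.11, adjusted p = 0.00173). The calls of Hlf, Nfil3 and Bhlhe40 held without any single one of the 6 libraries, with log2 fold changes of 1.38 to 1.52, 0.78 to 0.96 and 0.58 to 0.80, respectively.

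The remaining PAR bZIP genes did not pass the test. Tef had 98.5, 98.1 and 101 CPM after saline and 111, 108 and 103 CPM after dex. These values separated the groups without overlap, but the difference was small (log2 fold change 0.12, 95% interval -0.01 to 0.25, adjusted p = 0.278). Dbp had 14.0, 15.6 and 17.3 CPM after saline and 15.6, 16.8 and 17.6 CPM after dex. The Dbp groups overlapped, with a log2 fold change of 0.10 (95% interval -0.18 to 0.37, adjusted p = 0.722), so that a rise of the size seen for Hlf lay outside the interval for either gene.

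Bhlhe41, the close relative of Bhlhe40 also called DEC2, had 15.6, 18.7 and 26.4 CPM after saline and 11.4, 17.8 and 19.5 CPM after dex. The groups overlapped and the spread within each was wide. Its log2 fold change of -0.30 (95% interval -0.76 to 0.15, adjusted p = 0.461) did not pass the test, and its interval did not reach the value of Bhlhe40.

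**Figure D1:**
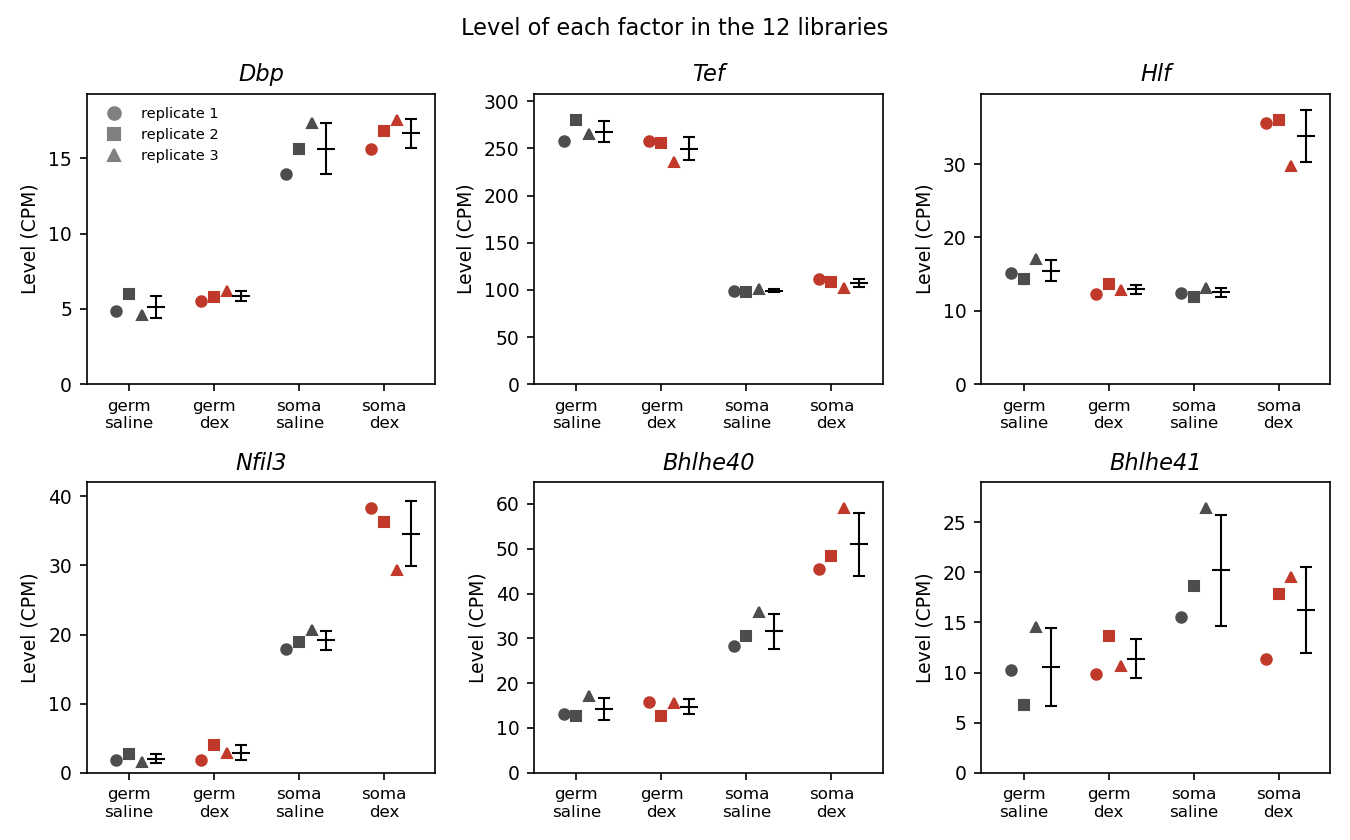
Level of each factor in CPM (vertical axes from 0) in the 12 libraries, with 1 panel per gene and the 4 groups on the horizontal axis; marker shapes give the replicate number, grey is saline, red is dex, and the black bar is the mean with its SD. Hlf, Nfil3 and Bhlhe40 stand higher in soma after dex than in soma after saline, and Tef stands highest in germ cells.

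Markers of other cell types moved in the same soma libraries. Of 10 macrophage markers, 5 were lower after dex (Csf1r, Adgre1, Lyz2, Mrc1 and Cd68) and none was higher, and their sums were 219 to 279 CPM after saline and 71.0 to 161 CPM after dex. Of 8 endothelial markers 3 were lower and 1 higher, with sums of 324 to 382 CPM after saline and 290 to 326 CPM after dex. Among 11 pregranulosa markers only Wnt4 was called, lower, and the sums overlapped (1531 to 1600 and 1290 to 1604 CPM). Of 10 stromal markers 2 were higher (Pdgfra and Dlk1), of 7 perivascular markers 1 was higher and 1 lower, and of 8 erythroid markers 1 was higher, with sums overlapping between treatments. Germ cell markers summed to 11.2 to 17.5 CPM after saline and 20.7 to 34.2 CPM after dex, with Dazl, which was higher, as the single called gene among the 7 tested. No macrophage, endothelial or pregranulosa marker was at 0 in all libraries of a soma group. The part of these shifts in the values of Hlf, Nfil3 and Bhlhe40 was not tested.

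In germ cells, none of the 6 factors was called after dex, where 0.208% of the 16857 tested genes were. None reached an unadjusted p under 0.05, and DESeq2 likewise called 0. The libraries of Tef and Hlf did not overlap between treatments, which was the case for 16.9% of all tested genes.

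Hlf in germ cells had 15.1, 14.3 and 17.1 CPM after saline and 12.4, 13.6 and 12.8 CPM after dex. The dex libraries were all a little lower, opposite to soma, with a log2 fold change of -0.24 (95% interval -0.54 to 0.06, adjusted p = 0.533). Tef had 258, 280 and 265 CPM after saline and 258, 255 and 235 CPM after dex, and the groups were separated by less than 1 CPM. Its log2 fold change was -0.08 (95% interval -0.23 to 0.07, adjusted p = 0.685).

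Dbp had 4.84, 5.96 and 4.58 CPM in germ cells after saline and 5.56, 5.77 and 6.21 CPM after dex, with overlapping groups (log2 fold change 0.21, 95% interval -0.21 to 0.62). Nfil3 was the least abundant, at 1.87, 2.72 and 1.51 CPM after saline and 1.90, 3.95 and 2.92 CPM after dex, which were 26 to 61 counts per library. Its groups overlapped, and its log2 fold change of 0.54 (95% interval -0.19 to 1.27, adjusted p = 0.569) was measured so loosely that a rise as large as that in soma lay inside the interval.

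Bhlhe40 had 13.2, 12.6 and 17.1 CPM in germ cells after saline and 15.8, 12.8 and 15.6 CPM after dex. Its groups overlapped (log2 fold change 0.06, 95% interval -0.28 to 0.41), and the soma value of 0.70 lay outside that interval. Bhlhe41 had 10.3, 6.79 and 14.6 CPM after saline and 9.87, 13.6 and 10.7 CPM after dex, with a log2 fold change of 0.13 (95% interval -0.39 to 0.66).

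The design also asks whether the dex effect differed between germ cells and soma, which was tested as an interaction over all 12 libraries. Hlf alone among the 6 was called, lower in germ cells, where 1.13% of the 19390 tested genes were called in that direction and 1.62% in either. The difference was -1.69 on the log2 scale (SE 0.17, 95% interval -2.06 to -1.33, adjusted p = 4.59e-05), and Hlf was gene 10 by p-value. It held without any single library, between -1.76 and -1.61.

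For Bhlhe40 the difference of -0.65 (SE 0.20, unadjusted p = 0.00532, adjusted p = 0.135) was not called, and it was called when genes with low counts were kept in the test (adjusted p = 0.0313). For Nfil3 the difference was -0.33 (95% interval -1.01 to 0.35, adjusted p = 0.679), so the call in soma and the lack of one in germ cells do not show that its response differed. The interval for Tef, -0.41 to -0.01, excluded 0 only before adjustment (adjusted p = 0.291). Dbp (0.10, adjusted p = 0.895) and Bhlhe41 (0.42, adjusted p = 0.627) gave no call.

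**Figure D2:**
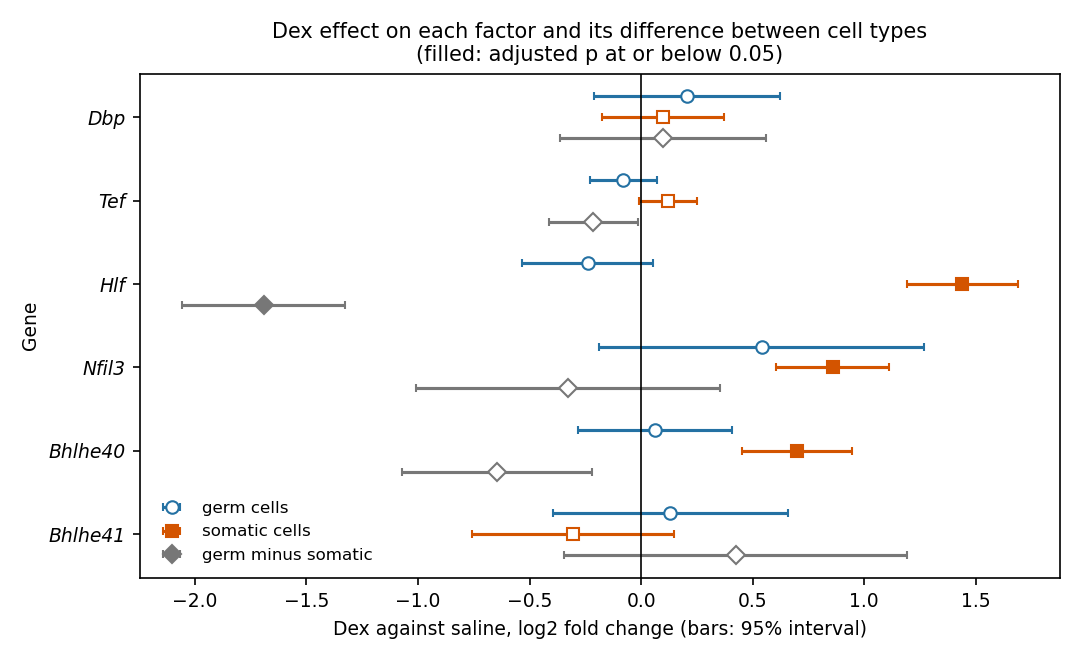
Log2 fold change of dex against saline (horizontal axis) for each factor in germ cells (blue circles) and soma (orange squares), and the difference of both effects (grey diamonds, germ minus soma), with 95% intervals as bars; filled symbols have an adjusted p at or below 0.05. Hlf, Nfil3 and Bhlhe40 are filled in soma, no factor is filled in germ cells, and Hlf alone is filled for the difference.

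The factors were distributed differently between the cell types. After saline all 6 were called between germ cells and soma, in a comparison where 86.1% of the 17941 tested genes were, so the count itself says little about these genes. Tef was higher in germ cells, at 268 ± 11.3 CPM against 99.2 ± 1.5 CPM in soma (SD, n = 3), a log2 difference of 1.43 (SE 0.07, adjusted p = 3.56e-11). Nfil3 was far lower in germ cells, at 2.03 ± 0.62 against 19.2 ± 1.4 CPM, a log2 difference of -3.24 (SE 0.21, adjusted p = 1.09e-09). Dbp (-1.61), Bhlhe40 (-1.15) and Bhlhe41 (-0.94) were lower in germ cells by log2 differences past the test, with no overlap between cell types.

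The germ level of Nfil3 after saline was 7.87 to 14.2% of the soma mean after saline. Its germ level after dex was 5.48 to 11.4% of the soma mean after dex. For each list of somatic markers, the level of each gene in a germ library was divided by its soma mean after saline. The median over the genes was 4.22 to 6.07% for pregranulosa markers after saline and 2.70 to 7.79% after dex. For macrophage markers it was 3.49 to 6.75% and 3.74 to 8.65%. Stromal markers stood at 0.49 to 0.79% and 0.50 to 1.12%, perivascular markers at 1.16 to 2.19% and 1.57 to 2.65%, and erythroid markers at 0.29 to 0.42% and 0.10 to 0.67%. The endothelial medians were 7.17 to 8.70% and 6.04 to 7.63%. In that list Tek was itself higher in germ cells (27.7 against 12.4 CPM after saline), while Kdr was at 2.66 against 162 CPM. After saline the Nfil3 share was above the pregranulosa, macrophage, stromal, perivascular and erythroid medians in every germ library. It overlapped the endothelial medians. Single markers lay far to either side of their median. Among pregranulosa markers after saline, Foxl2 had 7.41 CPM in germ cells against 66.7 CPM in soma, a share close to that of Nfil3. Wt1 had 8.56 against 479 CPM. Summed instead, macrophage markers were at 35.1 to 45.5 CPM in these libraries, against 219 to 279 CPM in soma after saline. Mrc1 alone averaged 31.7 CPM in germ cells after saline. After dex the shares of Nfil3 and of the markers have different soma references, so they were not compared. The part of remaining somatic RNA in the germ level of Nfil3 was not tested. Every other factor stood at 25.0% of soma or more.

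Hlf was close in both cell types after saline and clearly apart after dex. After saline germ cells had 15.48 ± 1.4 CPM of it and soma 12.50 ± 0.58 CPM (SD, n = 3), a log2 difference of 0.30 at the edge of the threshold (SE 0.14, adjusted p = 0.04996). That call was lost without germ saline replicate 1 or 3 and without any of the 3 soma saline libraries (adjusted p of 0.0621 to 0.186), with no filter on low counts (0.148), by DESeq2 (0.0679) and with the replicate block (0.0658), so no order after saline is drawn from it. After dex Hlf was lower in germ cells, at 12.9 ± 0.63 against 33.8 ± 3.5 CPM, a log2 difference of -1.42 (SE 0.12, adjusted p = 9.36e-07).

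After dex all 6 were again called between cell types, as were 84.3% of the 18171 tested genes, and Tef was the one factor higher in germ cells (log2 difference 1.19, adjusted p = 4.10e-08). Nfil3 (-3.59), Bhlhe40 (-1.82) and Dbp (-1.54) were lower. The Bhlhe41 libraries overlapped between cell types, and its log2 difference of -0.55 (SE 0.22, adjusted p = 0.0357) lost the call without germ dex replicate 1 or 3, or without soma dex replicate 2 or 3 (adjusted p of 0.102 to 0.127).

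Ordered by CPM over the 4 groups, Nfil3 and Bhlhe40 followed one order: soma after dex, soma after saline, and then both germ groups, which overlapped. Dbp was highest in soma and lowest in germ cells, with the treatments overlapping in each. Tef ran from germ after saline through germ after dex and soma after dex to soma after saline. Hlf was highest in soma after dex. Its germ libraries after saline came next by value, while germ after dex and soma after saline overlapped. As stated above, no order between germ cells and soma after saline is drawn for Hlf. For Bhlhe41 every neighbouring pair in the order overlapped.

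To compare levels between genes, the authors' FPKM (fragments per kilobase of exon, scaled to the depth of the library) were used, since CPM grows with gene length. In germ cells Tef dominated, at 34.1 ± 1.1 FPKM after saline and 31.7 ± 1.8 after dex (SD, n = 3), while the other 5 factors lay between 1.00 and 3.12 FPKM on average. Bhlhe40 came next in both germ groups and overlapped no other factor there. After saline Hlf stood above Dbp, while Dbp, Bhlhe41 and Nfil3 were not separated from their neighbours, and after dex Dbp, Hlf, Bhlhe41 and Nfil3 overlapped in turn.

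In soma after saline the order by FPKM was Tef (12.2 ± 0.21), Nfil3 (9.19 ± 0.67), Bhlhe40 (6.52 ± 0.80), Dbp (5.08 ± 0.54), Bhlhe41 (2.92 ± 0.80) and Hlf (1.82 ± 0.09), with no overlap between neighbours. After dex Nfil3 stood first (16.7 ± 2.3), ahead of Tef (13.3 ± 0.62) and Bhlhe40 (10.6 ± 1.4). Dbp (5.43 ± 0.28) and Hlf (4.93 ± 0.54) then overlapped, and Bhlhe41 (2.36 ± 0.61) was last. The repressor Nfil3 thus passed the activator Tef, and Hlf left the last place.

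The summed FPKM of the PAR bZIP activators divided by the FPKM of Nfil3 was 2.09 ± 0.07 in soma after saline and 1.44 ± 0.16 after dex (SD, n = 3). The libraries did not overlap (2.02 to 2.16 and 1.31 to 1.61). In germ cells the ratio was 40.0 ± 10.5 after saline and 27.1 ± 10.6 after dex, with overlapping libraries. Within the activator sum, the share of Hlf in soma went from 9.50 ± 0.31% to 20.8 ± 1.5%, and the share of Tef went from 64.0 ± 1.7% to 56.2 ± 0.90%. In germ cells Tef made up 89.4 ± 0.21% of the sum after saline and 89.1 ± 0.81% after dex. These ratios compare RNA levels and carry no test of their own.

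**Figure D3:**
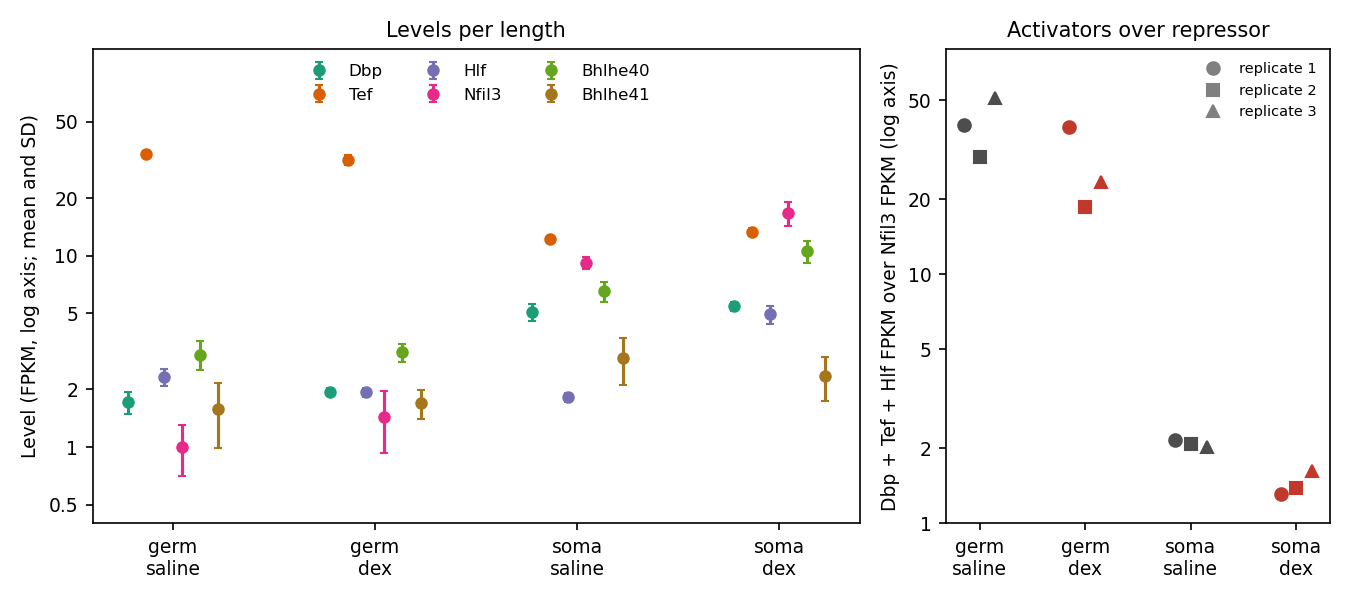
Left, mean level per length of each factor in the 4 groups (FPKM on a log axis, bars are SD, n = 3); right, the ratio of the summed FPKM of Dbp, Tef and Hlf to that of Nfil3 in each library (log axis; grey is saline, red is dex, shapes give the replicate). Tef stands above all other factors in germ cells, Nfil3 stands above Tef in soma after dex, and the ratio lies between 18.7 and 50.7 in germ cells and between 1.31 and 2.16 in soma.

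Other clock genes were examined as a list of 19 core components. In soma after dex 3 were higher and 0 lower. Per2 and Per1, which encode repressors of CLOCK and ARNTL, rose by log2 fold changes of 2.19 (SE 0.12, adjusted p = 1.11e-07) and 1.68 (SE 0.10, adjusted p = 2.24e-07), and Npas2, a relative of Clock, by 0.74 (SE 0.19, adjusted p = 0.0283). The median log2 fold change of the 19 was -0.06, against 0.00 over all tested genes. The activators Clock (-0.24, adjusted p = 0.115) and Arntl (-0.47, adjusted p = 0.134), the repressor Cry1 (0.20, adjusted p = 0.253) and the nuclear receptor Nr1d1 (-0.06, adjusted p = 0.907) did not pass the test.

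In germ cells 1 of the 19 was higher and 0 lower. Per1 rose from 14.5 ± 1.2 to 53.5 ± 11.5 CPM (SD, n = 3), or by 1.91 on the log2 scale (SE 0.16, adjusted p = 0.000906). Per2 (0.24, adjusted p = 0.571), Clock (-0.12, adjusted p = 0.577), Arntl (0.12, adjusted p = 0.759), Cry1 (0.08, adjusted p = 0.742) and Nr1d1 (-0.36, adjusted p = 0.558) did not pass. The dex effect on Per2 was lower in germ cells than in soma by -1.95 on the log2 scale (SE 0.19, adjusted p = 2.37e-05), while that on Per1 was not called different (0.21, adjusted p = 0.664).

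Per2 and Hlf therefore shared the pattern of a call in soma and a called difference between cell types, while Per1 was called in both. The pattern was not particular to clock genes. Of the 7 known targets of the glucocorticoid receptor, 4 had a dex effect called lower in germ cells. These were Fkbp5, Tsc22d3, Klf9 and Zbtb16, each called in soma, and Zbtb16 in germ cells too. Levels of the activators differed between cell types after saline: Clock stood at 265 ± 18.2 CPM in germ cells, against 44.8 ± 2.5 CPM in soma, and Arntl at 17.6 ± 2.4 against 8.26 ± 0.55 CPM (SD, n = 3). Per1 was lower in germ cells, at 14.5 ± 1.2 against 82.8 ± 6.0 CPM.

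Of 10 clock output genes and targets of PAR bZIP factors, 6 were expressed enough to be tested. In soma 3 of these rose: Usp2, a deubiquitinase (log2 fold change 0.71, adjusted p = 0.00113), Nampt, an enzyme of NAD synthesis (0.50, adjusted p = 0.00201), and Por, the cytochrome P450 reductase (0.27, adjusted p = 0.0481). In germ cells 0 of the 6 were called. The dex effect was lower in germ cells for Usp2 (-0.98, adjusted p = 0.0188) and Nampt (-0.62, adjusted p = 0.00682). Of 10 other genes of the bHLH-Orange family 6 were tested, and Hey1, a Notch target, was the one called in soma, lower by a log2 fold change of -0.53 (adjusted p = 0.0275).

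**Figure D4:**
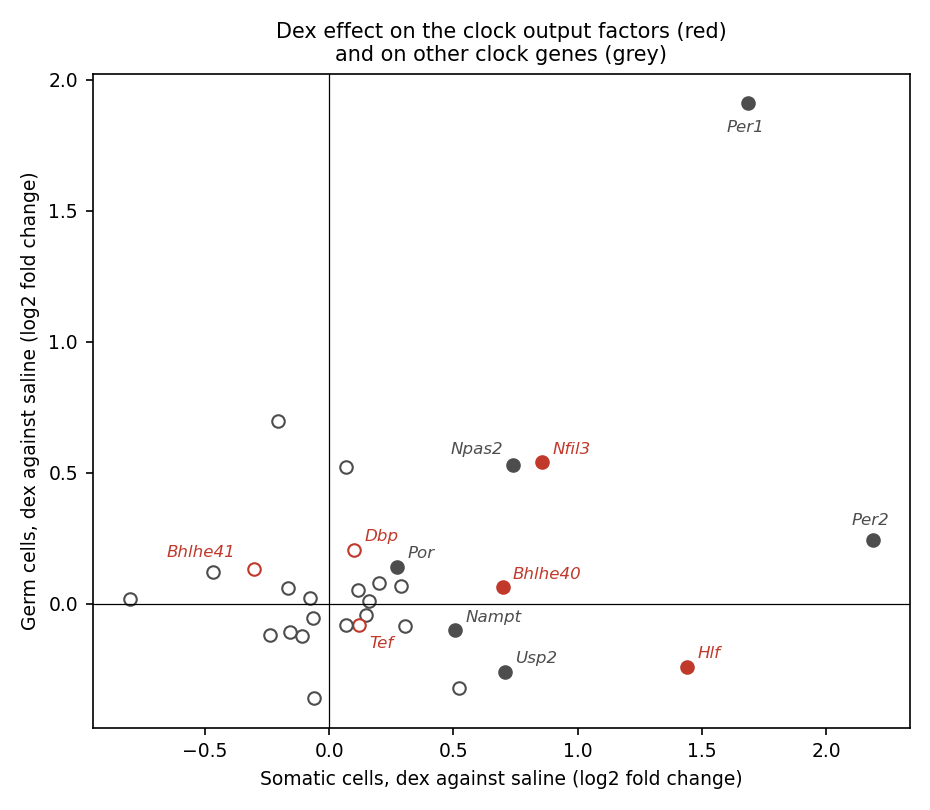
Log2 fold change of dex against saline in soma (horizontal axis) and in germ cells (vertical axis) for the 6 factors (red) and 25 other clock and clock output genes tested in both cell types (grey); filled points were called in soma, and those genes and the 6 factors are named. Per1 stands high on both axes, while Per2 and Hlf stand high on the soma axis and near 0 or below on the germ axis.

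As a description of likeness, the deviation of log2 (CPM + 0.5) from the mean of the cell type was correlated over the 12 libraries between each called factor and the other genes averaging 1 CPM or more, of which there were 16136. The libraries of a group share their treatment, and whether germ and soma libraries came from the same ovary pools was not given. The 3 genes most like Hlf were Dgat2 (r = 0.985), an enzyme of triglyceride synthesis, Pag1 (r = 0.979) and Acot6 (r = 0.979). Dgat2 went from 11.6 to 59.1 CPM in soma after dex and from 56.5 to 43.7 CPM in germ cells, on the means of 3 libraries. Most like Nfil3 were 6030408B16Rik (r = 0.971), Ptprk (r = 0.959) and Eef2k (r = 0.948), the last at 63.8 CPM in soma after saline and 172 CPM after dex. Most like Bhlhe40 were Stc2 (r = 0.935), Wnt9a (r = 0.932) and the ribosomal protein gene Rps6 (r = 0.905).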

How the data were processed

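The 6 genes and the gene lists were chosen with earlier results of these data known. Per the submitters' processing notes and the study's methods, the authors aligned reads of poly-A selected RNA to mm10 with HISAT2 2.0.5 and counted them per gene with featureCounts 1.5.0-p3. The authors deposited whole-number counts and, computed from those counts, gene length and depth, FPKM values. Tables of the authors' own comparisons, which also hold normalized counts, were not used.

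Counts were scaled by TMM over all libraries, and the main test was edgeR 4.0.16 (R 4.3.3), quasi-likelihood with Benjamini-Hochberg adjustment over all genes kept by filterByExpr, fitted on the libraries of each comparison; the interaction used all 12. Fitted folds used a prior count of 0.125. DESeq2 1.42.0, RLE size factors, no filter, a replicate block, all libraries in 1 fit and leaving out each library were alternatives. The test was tested on simulated data. Named genes were the 6 factors, called genes of each list (at most 6 by size), Clock, Arntl, Per1, Per2, Cry1 and Nr1d1, and the 3 genes most like each called factor. Replicates of a group differed by more than sampling noise, so none was a duplicate.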

Additional observations from a re-analysis of the deposited data

Results flagged for a closer look

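The dex effect on Hlf differed between the cell types by -1.69 on the log2 scale (germ minus soma), by the interaction term of the edgeR quasi-likelihood fit. It was the one result of these 6 genes for which the test of the difference itself was called. In soma all 3 dex libraries (29.7 to 36.0 CPM) stood above all 3 saline libraries (11.9 to 13.1 CPM). In germ cells all 3 dex libraries (12.4 to 13.6 CPM) stood below all 3 saline libraries (14.3 to 17.1 CPM), but the change there was not called (edgeR adjusted p = 0.533). Of all tested genes, 25.6% showed such a separation in soma and 16.9% in germ cells.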

How the results depend on the processing

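Of the 360 values of the 6 genes under the alternatives, 340 kept their direction and their side of the threshold, 15 lost the call, 1 gained it and 4 turned their direction; the cause was not tested. The 4 were dex effects in germ cells near 0 that were never called: Bhlhe40 turned without germ saline replicate 2 or germ dex replicate 1 (range without single libraries -0.026 to 0.20), and Bhlhe41 without germ saline replicate 2 or germ dex replicate 2 (-0.11 to 0.43). The 15 were Hlf between germ cells and soma after saline (8, also with no filter, DESeq2 and the replicate block) and Bhlhe41 between them after dex (7, also with RLE, DESeq2 and all 12 libraries). With no filter on low counts 2 of the 6 genes were called for the difference of dex effect, Bhlhe40 being added. Counts over all genes moved more. In germ cells 420 genes were called after dex with no filter, 158 by DESeq2 and 64 with all 12 libraries in 1 fit, against 35. Leaving out single libraries gave 17 (germ dex replicate 2 or germ saline replicate 3) to 81 (germ dex replicate 1). In soma the count of 1354 became 803 with all 12 libraries in 1 fit and 754 to 1881 without single libraries, below the main count by more than 1.5 times without soma dex replicate 2 or any soma saline library. For the difference, 314 became 727 with no filter, 620 by DESeq2 and 143 to 384 without single libraries, with such drops for germ dex replicates 2 and 3, germ saline replicate 3, soma dex replicates 1 and 2, and soma saline replicates 2 and 3.

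With the replicate block, 49 genes were called in germ cells, 1520 in soma and 313 for the difference, and the 6 genes kept their calls there. Between cell types 15283 were called after saline and 15044 after dex; there Hlf after saline lost its call (adjusted p = 0.0658), and the block changed no other call of the 6. Deviations from the group means of libraries with the same number correlated at 0.080 to 0.131 between germ cells and soma after saline and at 0.086 to 0.134 after dex, and each library correlated best with its own number. Between treatments the values were 0.013 to 0.215 in germ cells and -0.016 to 0.116 in soma. Since these were not all above 0.1, the numbers were not taken as pairs.

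Depth limits Nfil3 in germ cells, at 26 to 61 counts per library.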
